A study of Arabidopsis thaliana with 5 samples.

Results

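The genes described here encode proteins that loosen, cut or build the sugar polymers of the plant cell wall, or relatives of such proteins. In floral buds 34 of these genes were measured, in the *ask1* mutant and in the wild type, L*er*. They were chosen by name: every gene with a probe set of its own whose symbol is that of an alpha-expansin (EXPA), a beta-expansin (EXPB), an expansin-like protein (EXLA or EXLB), a xyloglucan endotransglucosylase/hydrolase (XTH), a cellulose synthase (CESA) or a cellulose synthase-like protein (CSL). This gave 10 alpha-expansins, 4 beta-expansins, 4 expansin-like genes, 9 XTH genes and 7 CSL genes out of 13356 genes with a single-gene probe set. The RefSeq annotation of Arabidopsis holds 97 genes with such symbols, among them 7 CESA genes, and no CESA gene was among the probe sets with a gene name. Genes of these families without a probe set named for them alone were not analysed here, among them *XTH24*. The study lists *XTH24* and *TCH4*, an XTH gene under another symbol, as raised in *ask1*, and neither is among the 34. A few relatives under other symbols or with shared probe sets are given beside the 34 and not counted among them. Each of the 34 was measured by 1 probe set.

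A growing plant cell is held by a wall of cellulose microfibrils that are tied together by xyloglucan and other hemicelluloses and embedded in pectin. Expansins let the wall yield without cutting its polymers, and XTH enzymes cut xyloglucan chains and rejoin or hydrolyse them. CSL enzymes of the CSLA and CSLC groups make backbones of hemicelluloses in the Golgi. In flowers these proteins act while petals, filaments and anthers extend.

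The *ask1* plants were homozygous for a mutation in *ASK1*, which encodes a subunit of SCF ubiquitin ligases, in the L*er* background, and L*er* plants were the wild type. Both were grown on soil, and clusters of unopened buds, which hold many organs and stages, were taken from primary inflorescences. The mutants had been picked from segregating progeny by their phenotype, which includes small size, few or small petals, short filaments and sterile anthers, so the organ make-up of the buds can differ with the genotype. In such bulk RNA, fewer cells of a type and less RNA per cell cannot be told apart. There were 3 *ask1* and 2 L*er* ATH1 arrays, labelled as biological replicates, and values are RMA log2 signals, on which a difference of 1 is a 2-fold change. A signal of a probe set also depends on its probes, so signals were compared between arrays and not between genes. Values per array are given in the order of the replicate numbers.

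Over all probe sets the arrays had median log2 signals of 7.07 to 7.18. *ask1* replicates 1 and 3 were the closest pair (24 probe sets at least 2-fold apart). The L*er* arrays differed at 292 probe sets from each other. *ask1* replicate 2 differed at 510 and 543 probe sets from *ask1* replicates 1 and 3. From L*er* replicates 1 and 2 it differed at fewer, 411 and 360. *ask1* replicate 1 differed from the L*er* arrays at 538 and 411, and *ask1* replicate 3 at 503 and 561. Of the markers fixed for the tissue, few carried a gene name. Of 15 floral organ identity genes 1 was measured, the floral regulator gene *UFO*, with signals of 5.99 to 6.29, and of 4 green tissue markers 1, *RCA*, a gene of photosynthesis, with signals of 12.16 to 12.77. The probe set of *ASK1* carries no gene name here, so the genotype labels were not checked on it. Of 13 late pollen markers 3 were measured, the brightest being *MGH3* at 5.18 to 5.44, while *ANX1* and *ANX2* stayed at 3.88 to 4.13, where background dominates. Of 16 tapetum markers 3 were measured, with mean log2 signals of 7.84, 7.47 and 7.98 on the *ask1* arrays and 9.14 and 7.58 on the L*er* arrays. The high mean of L*er* replicate 1 came from 2 of the markers, A9 (AT5G07230) at 11.46 and 8.31 on the L*er* arrays and *AMS* at 5.96 and 4.61. On the *ask1* arrays *AMS* had 4.80, 4.39 and 4.74, so that background weighs on it outside L*er* replicate 1. The third, *EMS1*, differed little between the L*er* arrays (9.99 and 9.83) and more among the *ask1* arrays (9.74, 9.39 and 9.81).

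Most of these wall genes had small differences in RNA between *ask1* and L*er* buds, and the largest were those of *CSLA01* (2.70-fold higher means), *XTH16* (1.55-fold higher) and *EXLA1* (a log2 ratio of -0.57). In limma across all 22589 genes and other probe sets, 0 of the 34 passed the Benjamini-Hochberg adjusted threshold of 0.05, which 0.0133% of all probe sets tested did, and the smallest adjusted p among the 34 was 0.462. At an unadjusted p under 0.05, 3 genes were higher (*EXPA15*, *XTH16* and *CSLC04*) and 1 was lower (*EXLA1*), together 11.8% of the 34 against 6.95% of all probe sets tested (3.98% higher and 2.97% lower). The methods' t-test called 5 higher (*CSLC04*, *CSLC5*, *EXPA15*, *EXPA8* and *XTH19*) and 0 lower at the same p, against 5.85% of all probe sets tested. *XTH16* and *EXLA1* were not among them. One gene, *CSLA01*, had means at least 2-fold apart, and 0 genes met both criteria of the study, 2-fold and an unadjusted p under 0.05, which 0.589% of all probe sets tested met. For 31 of the 34 genes (91.2%) the 95% confidence interval stayed inside a 2-fold change either way, as for 93.9% of all probe sets tested. The 3 exceptions were *CSLA01*, *XTH16* and *EXLA1*. Ratios within 0.25 of 0 on the log2 scale were found in 27 genes. The share of all probe sets tested was not computed for this count or for that of means at least 2-fold apart.

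Over the 34 genes the median log2 ratio (*ask1* against L*er*) was 0.06, beside -0.01 over all probe sets tested. Of the 34, 23 were above 0 (67.6%, against 47.5% of all probe sets tested). By family the median was 0.28 for beta-expansins, 0.08 for CSL, 0.06 for XTH, -0.03 for expansin-like genes and 0.00 for alpha-expansins. Without L*er* replicate 1 the medians of all families but the beta-expansins (0.20) were below 0. They were -0.02 for XTH, -0.05 for CSL, -0.02 for alpha-expansins and -0.07 for expansin-like genes. Every *ask1* array lay above every L*er* array in 7 genes (20.6%, against 10.2% of all probe sets tested). Every *ask1* array lay below every L*er* array in 2 genes (10.7% of all probe sets tested). These were *EXLA1*, with a gap of -0.14 log2 units, and *CSLC12*, with a gap of only -0.0021. No gap between the groups was over 0.5. In 11 of the 34 genes, 6 of them XTH genes, the mean log2 signal was under 5 (23.7% of all probe sets tested), so that background weighs on their ratios.

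**Figure D1:**
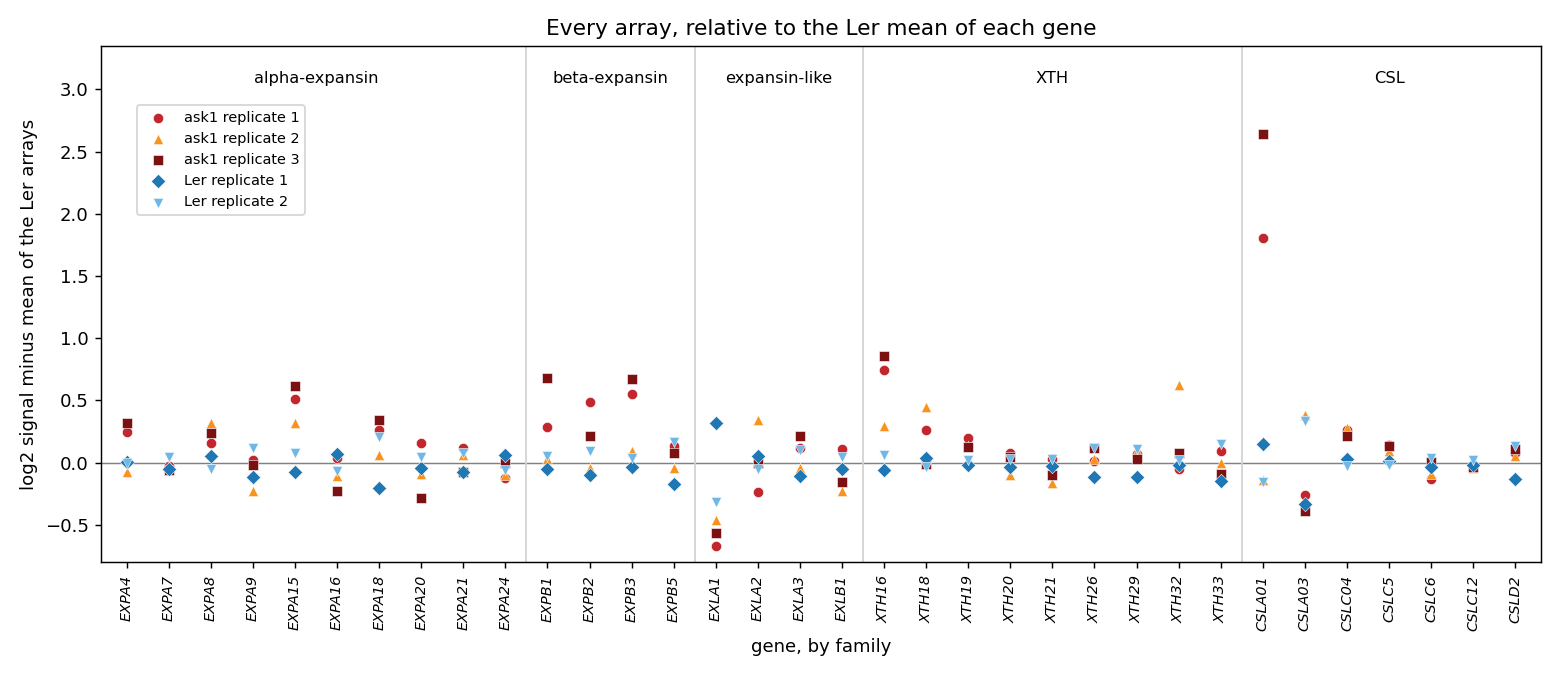
Log2 signal of each of the 34 genes (x axis, by family) on every array, as its difference from the mean of the 2 L*er* arrays (y axis, log2 units); each point is 1 array. Most genes stay within 0.5 of the L*er* mean on all arrays, and *CSLA01* stands apart at 8.54 and 9.38 in *ask1* replicates 1 and 3 against 6.60 in *ask1* replicate 2.

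**Figure D2:**
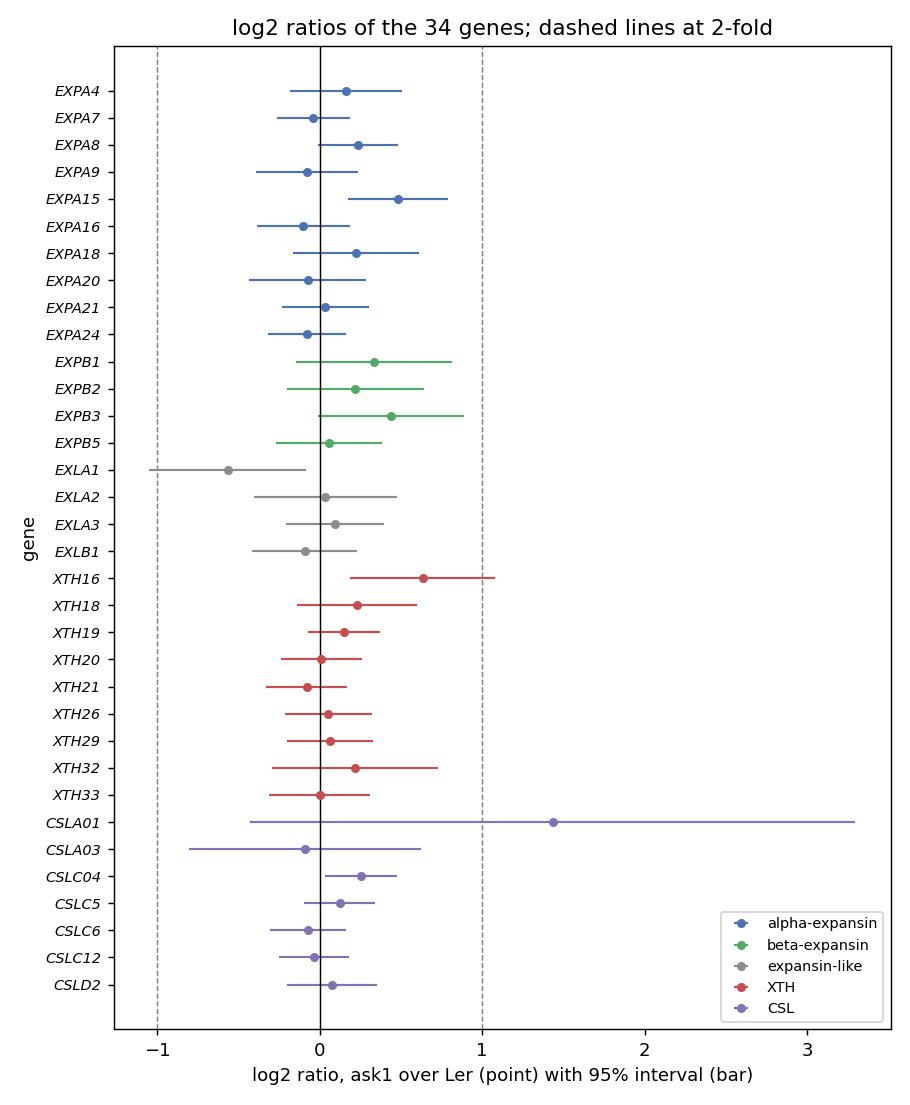
Mean log2 ratio of *ask1* over L*er* (points) with its 95% confidence interval from limma (bars) for the 34 genes (y axis), coloured by family, with dashed lines at 2-fold. The intervals of *CSLA01*, *XTH16* and *EXLA1* cross a dashed line, and the other 31 lie between the lines.

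Alpha-expansins are expansins that loosen walls in acid conditions. Among them *EXPA15* (AT2G03090) had the highest ratio. Its log2 signals were 11.32, 11.13 and 11.44 on the *ask1* arrays and 10.74 and 10.89 on the L*er* arrays. All *ask1* arrays were above both L*er* arrays, with *ask1* replicate 2 the nearest to them. The log2 ratio was 0.48 (standard error 0.13, adjusted p = 0.462 from limma), a 1.40-fold difference of the means, and it stayed between 0.41 and 0.56 when any 1 array was left out. *EXPA4* had 10.06, 9.74 and 10.13 in *ask1* and 9.82 and 9.81 in L*er*. Here *ask1* replicate 2 lay below the L*er* arrays while the other two lay above them, and the log2 ratio was 0.16 with an interval from -0.18 to 0.51. *EXPA8* had 6.28, 6.44 and 6.36 in *ask1* against 6.17 and 6.07 in L*er*, without overlap and with a log2 ratio of 0.24 (adjusted p = 0.729 from limma).

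The lowest ratio of an alpha-expansin was that of *EXPA16*, -0.10 (standard error 0.12), on a probe set with mean signals of 4.79 ± 0.13 (SD, n = 3) for *ask1* and 4.89 ± 0.10 (SD, n = 2) for L*er*. *EXPA7* and *EXPA18*, known for their part in root hair growth, had mean signals of 5.86 and 5.49 in *ask1* and 5.90 and 5.27 in L*er*. *EXPA20* had 8.10, 7.86 and 7.66 in *ask1* and 7.90 and 7.99 in L*er*, so that its L*er* arrays lay inside the *ask1* range. *EXPA21* and *EXPA24* lie near each other on chromosome 5 with 4 coding genes between them, and both had mean signals under 5 and ratios of 0.04 and -0.08. Probe sets shared by other genes with EXPA symbols are not counted among the 34: the set for *EXP26* and *EXPA22* had a ratio of -0.12 and the set for *EXPA25* and *EXPA23* of -0.19, both with mean signals under 5. In *EXPA9* the ratio was -0.08.

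All 4 beta-expansins measured, relatives of the group of grass pollen allergens, had ratios above 0, and 0 of them had an unadjusted p under 0.05. *EXPB3* (AT4G28250) had log2 signals of 10.01, 9.55 and 10.13 on the *ask1* arrays and 9.42 and 9.49 on the L*er* arrays. The groups did not overlap, but *ask1* replicate 2 was close to the L*er* arrays, at a gap of 0.057. The log2 ratio was 0.44 (standard error 0.18, adjusted p = 0.726 from limma) and 0.61 without *ask1* replicate 2. *EXPB1* had 6.50, 6.24 and 6.89 in *ask1* and 6.16 and 6.26 in L*er*, with *ask1* replicate 2 between the L*er* arrays and a log2 ratio of 0.33 (standard error 0.20). *EXPB2* likewise had its lowest *ask1* value in replicate 2, with 5.74, 5.21 and 5.47 against 5.16 and 5.35, and a ratio of 0.22 (standard error 0.17). The signals of *EXPB5* were 4.91 ± 0.09 (SD, n = 3) for *ask1* and 4.85 ± 0.24 (SD, n = 2) for L*er*. Its ratio of 0.06 was -0.11 without L*er* replicate 1.

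Expansin-like proteins share the domains of expansins, and a wall-loosening action has not been established for them. *EXLA1* (AT3G45970) was the one gene of the 34 that was lower in *ask1* at an unadjusted p under 0.05. Its log2 signals were 5.21, 5.43 and 5.32 on the *ask1* arrays and 6.21 and 5.57 on the L*er* arrays. The *ask1* arrays lay close together below both L*er* arrays, and L*er* replicate 1 stood apart from all others. The log2 ratio was -0.57 (standard error 0.20, adjusted p = 0.638 from limma). Leaving out L*er* replicate 1 gave -0.25 and leaving out L*er* replicate 2 gave -0.88, so the size depends on which L*er* array is used. L*er* replicate 1 was also the array with the highest mean of the 3 tapetum markers (9.14 against 7.47 to 7.98 in the others), and their part in the ratio of *EXLA1* was not tested.

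*EXLA3* lies next to *EXLA1* on chromosome 3 with 0 coding genes between them and did not share its pattern of values. It had signals of 4.28, 4.12 and 4.38 in *ask1* and 4.06 and 4.27 in L*er*, near background, with a ratio of 0.10. *EXLA2* had 7.11, 7.69 and 7.35 in *ask1* and 7.40 and 7.30 in L*er*, with *ask1* replicate 2 the highest of all arrays and a log2 ratio of 0.04 (standard error 0.18). *EXLB1* had 5.59, 5.25 and 5.32 against 5.43 and 5.52, a ratio of -0.09 (standard error 0.13). AT4G30380, annotated as an expansin-like B2 precursor but listed under another symbol, had a mean signal of 4.002 for *ask1* and 4.011 for L*er*.

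*XTH16* (AT3G23730) had the highest ratio of the XTH genes. Its log2 signals were 10.80, 10.35 and 10.91 on the *ask1* arrays and 9.99 and 10.11 on the L*er* arrays. All *ask1* arrays were above both L*er* arrays by at least 0.24, and *ask1* replicate 2 was again the lowest of them. The log2 ratio was 0.63 (standard error 0.18, adjusted p = 0.526 from limma) with an interval from 0.19 to 1.08, a 1.55-fold difference of the means. Without *ask1* replicate 2 it was 0.80 with an adjusted p of 0.0370 from limma, and over all alternatives the adjusted p ranged from 0.0370 to 1.00.

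*XTH32*, of the branch of the family with enzymes that hydrolyse xyloglucan, had 9.19, 9.87 and 9.32 in *ask1* and 9.22 and 9.27 in L*er*. In this gene *ask1* replicate 2 was the highest array, where in *XTH16* it was the lowest of *ask1*, and the remaining 4 arrays lay within the range of 9.19 to 9.32. The log2 ratio was 0.22 (standard error 0.21). *EXGT-A3*, a further XTH gene under an older symbol, was not counted among the 34 and also had its highest signal in *ask1* replicate 2, with 8.49, 9.22 and 8.75 in *ask1* and 8.64 and 8.32 in L*er*. *XTH33*, whose product has a predicted membrane anchor, had mean signals of 5.75 ± 0.09 (SD, n = 3) and 5.75 ± 0.21 (SD, n = 2) and a ratio of 0.00.

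The other 6 XTH genes measured had mean signals under 5, and their ratios ran from -0.08 (*XTH21*, a gene of root growth) to 0.23 (*XTH18*). *XTH18* and *XTH19*, root-expressed genes that are next to each other on chromosome 4 with 0 coding genes between them, had 4.96, 5.13 and 4.68 against 4.73 and 4.65, and 4.28, 4.21 and 4.20 against 4.06 and 4.10. The groups overlapped in *XTH18* and did not in *XTH19*, where the ratio was 0.15 (standard error 0.09). *XTH20*, *XTH26* and *XTH29* had ratios of 0.01, 0.05 and 0.06. Short probes can pick up RNA of close relatives. Whether they did so here was not tested, so neighbouring or closely related members of these families stay uncertain.

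**Figure D3:**
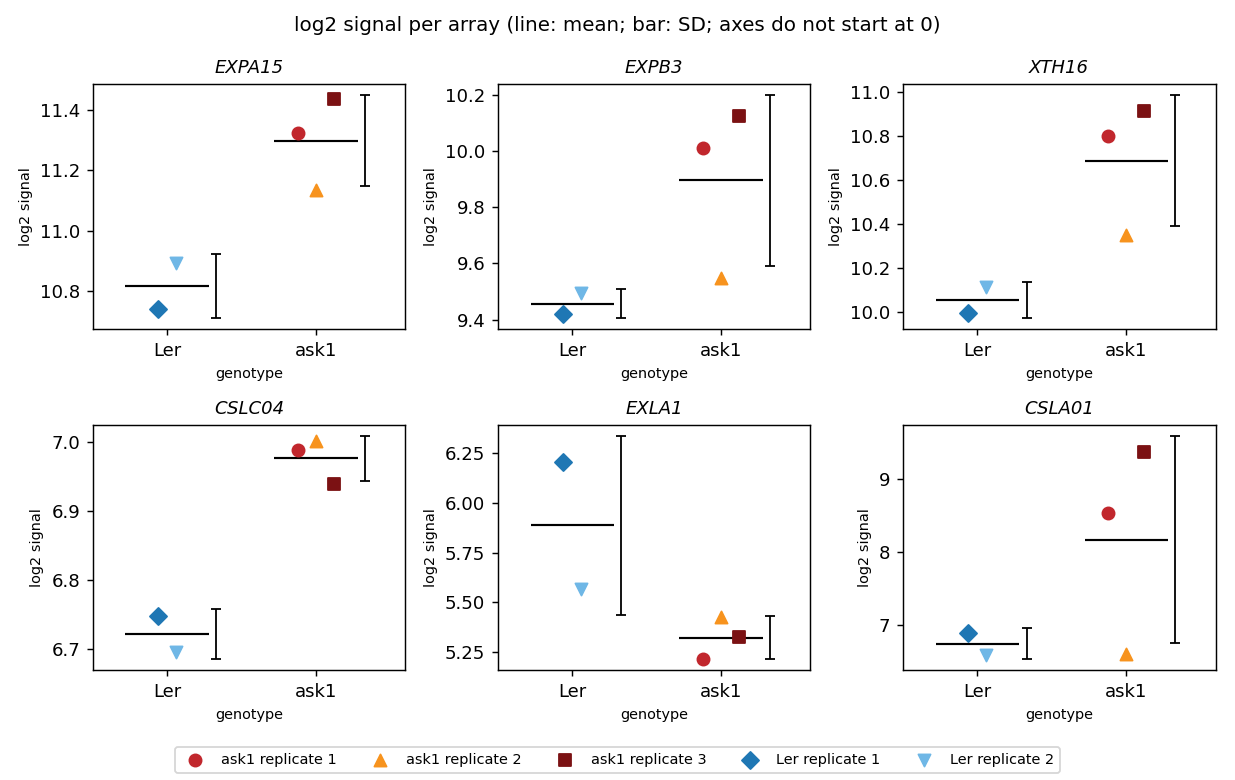
Log2 signal (y axis, a separate scale for each gene that does not start at 0) of 6 genes in L*er* and *ask1* (x axis); each point is 1 array, lines are group means and bars the SD. *ask1* replicate 2 is the lowest *ask1* array in *EXPA15*, *EXPB3*, *XTH16* and *CSLA01*, the 3 *ask1* arrays of *CSLC04* lie together above L*er*, and L*er* replicate 1 stands apart in *EXLA1*.

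*CSLA01* (AT4G16590), of the CSLA group whose members make mannan backbones, had the highest ratio and the widest spread of the 34 genes. Its log2 signals were 8.54, 6.60 and 9.38 on the *ask1* arrays and 6.89 and 6.59 on the L*er* arrays. *ask1* replicate 2 was at the L*er* level, between the L*er* arrays, and *ask1* replicates 1 and 3 were above all others. The range of 2.78 over the *ask1* arrays was reached by 0.257% of all probe sets tested. The mean log2 ratio was 1.43 (standard error 0.76, adjusted p = 0.806 from limma), a 2.70-fold difference, with an interval from -0.43 to 3.30. Without *ask1* replicate 2 the ratio was 2.22 with an adjusted p of 0.0242, without *ask1* replicate 3 it was 0.83, and over all alternatives the adjusted p ranged from 0.0242 to 1.00. The gene stands in the study's list of genes raised in *ask1*, which was drawn in part from these arrays, so its direction is not independent evidence. *CSLA03*, the second CSLA gene measured, had 6.16, 6.80 and 6.03 in *ask1* and 6.09 and 6.75 in L*er*. There *ask1* replicate 2 and L*er* replicate 2 were high and the other 3 arrays low, and the log2 ratio was -0.09 (standard error 0.29).

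CSLC enzymes make the glucan backbone of xyloglucan, the polymer that XTH enzymes cut. *CSLC04* (AT3G28180) had 6.99, 7.001 and 6.94 on the *ask1* arrays and 6.75 and 6.70 on the L*er* arrays. The groups did not overlap and *ask1* replicate 2 did not stand apart here. The log2 ratio was 0.25 (standard error 0.09, adjusted p = 0.640 from limma), a 1.19-fold difference, and it ranged from 0.23 to 0.28 when 1 array was left out. The unadjusted p under 0.05 did not hold in any of those fits and held in 5 of all 14 alternatives, as against 12 for *EXPA15* and *XTH16* and 8 for *EXLA1*. *CSLC5* had 8.49, 8.44 and 8.48 against 8.36 and 8.33, also without overlap, and a ratio of 0.12 (standard error 0.09). *CSLC6* and *CSLC12* had ratios of -0.07 and -0.03, with all arrays of *CSLC12* between 5.87 and 5.94. *ATCSLC08*, a further gene of the group that the choice by symbol left out, had mean signals of 9.09 ± 0.10 (SD, n = 3) and 9.22 ± 0.07 (SD, n = 2) and a ratio of -0.13. *CSLD2*, of a group linked to wall synthesis in tip-growing root hairs, had 8.65, 8.63 and 8.69 in *ask1* and 8.44 and 8.71 in L*er*, a ratio of 0.08 (standard error 0.11).

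*ask1* replicate 2 was the lowest *ask1* array in 17 of the 34 genes (50.0%, against 42.4% of all probe sets tested) and the highest in 8 genes (31.7% of all probe sets tested). It was the lowest in all 4 beta-expansins. Without it, 7 of the 34 genes had an unadjusted p under 0.05 (12.7% of all probe sets tested) and 2, *XTH16* and *CSLA01*, passed the adjusted threshold by limma (1.65% of all probe sets tested). The *ask1* arrays that then remain are the closest pair of the series. Without L*er* replicate 1, 0 of the 34 genes had an unadjusted p under 0.05 by limma (5.67% of all probe sets tested), and without *ask1* replicate 1 there were 2, *EXPA15* and *XTH16* (5.14% of all probe sets tested). Without *ask1* replicate 3 there were 3 (*EXPA15*, *XTH16* and *XTH18*, against 3.97% of all probe sets tested), and leaving out L*er* replicate 2 gave 4 (*EXLA1*, *EXPA15*, *EXPA18* and *XTH16*, against 8.17%).

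Of the other genes of wall synthesis and growth control few were measured, and at an unadjusted p under 0.05 the share of all probe sets tested was 6.95%. Of 12 partners of cellulose synthesis 5 were measured, with a median log2 ratio of 0.06 and 0 genes at an unadjusted p under 0.05 by limma. They ran from -0.11 for AT3G57420 to 0.23 for AT1G45688, both from gene families that act in cellulose synthesis. *COB*, which orients cellulose microfibrils, had 9.46, 9.48 and 9.82 in *ask1* and 9.46 and 9.59 in L*er*. Of 7 genes of growth signaling 4 were measured, with a median of 0.05, and 2 of them, *ANX1* and *ANX2*, had the background-level signals given above. Of these 4, the receptor kinase gene *THE1*, which senses the state of the wall, had 8.21, 8.51 and 8.34 in *ask1* and 8.03 and 8.002 in L*er*, without overlap. Its log2 ratio was 0.34 (standard error 0.12, adjusted p = 0.633 from limma), and it was the one gene of the list at an unadjusted p under 0.05. *FER*, a related receptor kinase gene, had a ratio of -0.05. Of 18 pectin genes 1 was measured, the polygalacturonase gene *ADPG1* at background-level signals of 3.47 to 3.65, and of 11 genes of xyloglucan synthesis and trimming 0 were. *GUT2*, the one measured of 11 secondary wall genes and a gene of xylan synthesis, had 6.54 to 6.77 over all arrays and a ratio of -0.06.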

How the data were processed

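Total RNA of unopened buds was hybridised to Affymetrix ATH1 arrays, and the deposited values are log2 signals that the authors computed with RMA (background correction, quantile normalization between arrays and a summary per probe set). The paper counts more L*er* arrays than the 2 used here. Of 22746 probe sets, 13513 have 1 gene in the platform table, 503 several and 8730 (38.4%) none. For genes with several single-gene probe sets the brightest was kept. The resulting 22589 rows were fitted by genotype in R 4.3.3 with limma 3.58.1 (2-sided moderated test), and p-values were adjusted by Benjamini-Hochberg over the whole table and called under 0.05. Precision is limited by having 5 arrays.

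The genes and lists were chosen with earlier results of these data known. Values are given for genes at an unadjusted p under 0.05 or at least 2-fold apart, for the brightest and the extreme ratios of each family, for small families whole, and for further members after their values were seen. As alternatives, array weights, limma-trend, the methods' t-test, centring, quantile normalization, a filter on dim rows, the mean of probe sets, a replicate block, averaging of *ask1* replicates 1 and 3, and leaving out each array were run. The RefSeq annotation served only to name genes and to count the coding genes between neighbours, and no sequences were used here.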

Additional observations from a re-analysis of the deposited data

How the results depend on the processing

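With all arrays 4 of the 34 genes had an unadjusted p under 0.05 by limma, and 14 alternatives were run. This count was 1 (*XTH16*) with the replicate block and 2 (*EXPA15* and *XTH16*) with *ask1* replicates 1 and 3 averaged. It was 6 with array weights, 5 with centring and 5 with quantile normalization. The share of all probe sets tested was not computed for these settings, so their counts cannot be set against it. Leaving out 1 *ask1* array gave 2 to 7, the highest without *ask1* replicate 2. The block sets *ask1* replicate 3 aside, as no L*er* array shares its number, and deviations from the group means correlated at -0.26 and -0.01 in the 2 pairs of like number, too few to show a pairing. The count past 2-fold and such a p, 0 with all arrays, was 1 (*CSLA01*) with array weights. It was 0 to 1 when 1 *ask1* array was left out, and the share of all probe sets tested was not computed for either. The count past the adjusted threshold, also 0, was 0 to 2 when 1 array was left out. With dim rows left out the median log2 ratio was 0.22 for the XTH family and 0.16 for alpha-expansins, since 6 XTH genes and 3 alpha-expansins were no longer in it. When 1 array was left out the XTH median ran from -0.021 to 0.17. The sign turned under at least 1 alternative in 13 of the 34 genes, all with ratios within 0.096 of 0. Among those named by rule these were *CSLA03* (0.062 with the replicate block, 0.030 with replicates averaged, -0.42 to 0.24 when 1 array was left out), *EXLA2* (-0.0097 with array weights, -0.12 to 0.17 when 1 array was left out), and on leaving out 1 array *CSLD2* (-0.054 to 0.21), *EXLA3* (-0.0085 to 0.20) and *EXPB5* (-0.11 to 0.22). Each of the 34 has 1 probe set, so the mean of probe sets leaves the ratios as they are. The cause of the other changes was not tested.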
